A study of Mus musculus with 16 samples.

Results

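The mouse zinc finger protein genes were taken as the table rows whose symbol is Zfp followed by digits only, on chromosomes 1 to 19. Zfp42, Zfp57 and Zfp264 were left out, as were the genes of an array on distal chromosome 4, which had 14 rows in the methylation table and 1 in the histone table. The rule found 352 of 55471 rows of the promoter methylation table and 336 of 43984 rows of the histone table. These rows held 363 different symbols, of which 322 stood in both tables, 12 in the histone table alone and 29 in the methylation table alone. Rows were joined by gene identifier, which gave 368 identifiers. Of these, 355 were annotated as protein coding and 8 as pseudogenes.

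The study asked whether induced pluripotent stem cells (iPSCs) keep chromatin marks of the cell they came from. PTC11 and PTC12 were iPSC lines from kidney proximal tubule cells, and TTF1 and TTF4 were iPSC lines from tail tip fibroblasts. The cells came from littermates that carried SLC34a1-GCE and tdTomato together with OKMS-250 and rtTAROSA (neo-in), heterozygous for each transgene, so that doxycycline turns on Oct4, Klf4, c-Myc and Sox2. The mice were fed tamoxifen before kidneys and tail tips were collected. In the proximal tubule cells Cre came from the SLC34a1 promoter, and the tail tip fibroblasts received Cre from an electroporated plasmid, so the origins differed in Cre source too. Each line was grown from a picked colony, and each line gave 1 library each for mCpG, H3K4me3 and H3K36me3, so an origin is represented by 2 lines. For H3K27me3, PTC11 gave 2 libraries by their labels and PTC12 none. CpG methylation (mCpG) was read on nanopores and is the methylated fraction averaged over windows within 1000 bases of the transcription start. H3K4me3 and H3K36me3 were read by ChIP-seq and are given as RPKM (reads scaled by length and library size) minus input, around the start or over the gene body. A gene with no retained peak had no value. No zinc finger gene had an H3K27me3 value in any library, beside 192 of 43984 genes of the whole table.

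The lines differed as a whole, which touches every comparison here. The median methylated fraction over all genes with a value in every line was 0.380 and 0.535 in PTC11 and PTC12, and 0.370 and 0.769 in TTF1 and TTF4. H3K36me3 was also split by line and not by origin. The median over all genes was 1.66 and 1.21 RPKM in PTC11 and TTF1, and 4.04 and 4.07 RPKM in PTC12 and TTF4. H3K4me3 was split another way, with medians of 3.73 and 3.72 RPKM in PTC11 and TTF4 and of 5.31 and 5.72 RPKM in PTC12 and TTF1. Of 7 pluripotency markers, 6 had H3K4me3 in every line (Pou5f1 at 4.24 to 5.56 RPKM), and Dppa5a had 1.06, 0.661 and 1.23 RPKM in PTC11, PTC12 and TTF1 and no value in TTF4. Of 5 proximal tubule markers, Lrp2 had H3K4me3 in every line (4.01 to 7.15 RPKM), Aqp1 in PTC12 alone (2.84 RPKM), and Slc34a1, Cubn and Slc5a2 in no line. Of 5 fibroblast markers, Thy1 had H3K4me3 in every line (2.67 to 4.85 RPKM), Col1a1, Col1a2 and Pdgfra in every line but PTC11, and Fap in no line.

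Zinc finger proteins of this family bind DNA through repeated fingers, each held by a zinc ion between paired cysteines and histidines. Many of them carry a KRAB domain that recruits Trim28 and, through it, Setdb1 and heterochromatin proteins to silence retroelements. Many of the genes arose by tandem duplication, and many sit in arrays on a few chromosomes. Methylated CpGs at a start usually accompany a silent promoter, H3K4me3 marks active or poised starts, and H3K36me3 is laid down along transcribed bodies.

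The proteins fitted their name. In the translated coding sequences a cysteine pair spaced by 2 to 4 residues, a loop of 12 and a histidine pair spaced by 3 to 5 was found at least 1 time in 340 of 355 proteins. The median was 11 fingers, the quartiles were 7 and 14, and the highest count was 37. Among the proteins with 0 matches was Zfp36, whose fingers are of another type. Chromosome 7 held 94 of the 368 identifiers, chromosome 17 held 41 and chromosome 13 held 37.

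The promoters of 6 genes show the range of sequence and methylation. Each is the RefSeq window from 250 bases before to 50 bases after the start (GRCm38.p6, read along the gene's strand), with every CpG in capitals. Among the genes considered for printing, Zfp664 and Zfp687 had the lowest mean methylation, and Zfp957 and Zfp708 the highest. Zfp65 had the widest gap between TTF4 and the other lines among those in the chromosome 13 array. Zfp640 of that array, not printed here, had a wider gap. Zfp84 had the lowest methylation among promoters with fewer than 10 CpGs that hold CCGGAA.
Zfp664 (chr5:124862455-124862754, plus strand): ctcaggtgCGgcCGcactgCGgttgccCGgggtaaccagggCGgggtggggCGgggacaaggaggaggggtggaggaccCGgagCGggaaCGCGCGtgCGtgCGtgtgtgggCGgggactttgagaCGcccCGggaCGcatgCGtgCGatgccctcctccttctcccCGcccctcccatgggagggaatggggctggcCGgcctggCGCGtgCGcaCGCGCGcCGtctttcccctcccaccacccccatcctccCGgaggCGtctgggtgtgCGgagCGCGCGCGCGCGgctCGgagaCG
Zfp687 (chr3:95015408-95015707, minus strand): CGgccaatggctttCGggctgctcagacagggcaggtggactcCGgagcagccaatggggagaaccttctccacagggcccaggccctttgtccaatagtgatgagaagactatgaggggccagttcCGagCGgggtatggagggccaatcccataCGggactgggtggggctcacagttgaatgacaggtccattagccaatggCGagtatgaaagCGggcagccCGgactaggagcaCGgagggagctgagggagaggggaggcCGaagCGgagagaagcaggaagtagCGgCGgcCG
Zfp957 (chr14:79247318-79247617, minus strand): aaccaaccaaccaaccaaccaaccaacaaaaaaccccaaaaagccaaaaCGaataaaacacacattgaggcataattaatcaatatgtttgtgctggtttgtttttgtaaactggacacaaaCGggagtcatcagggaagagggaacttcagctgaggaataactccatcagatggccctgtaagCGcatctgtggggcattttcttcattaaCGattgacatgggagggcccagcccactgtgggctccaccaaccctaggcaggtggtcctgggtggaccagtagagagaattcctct
Zfp708 (chr13:67097927-67098226, minus strand): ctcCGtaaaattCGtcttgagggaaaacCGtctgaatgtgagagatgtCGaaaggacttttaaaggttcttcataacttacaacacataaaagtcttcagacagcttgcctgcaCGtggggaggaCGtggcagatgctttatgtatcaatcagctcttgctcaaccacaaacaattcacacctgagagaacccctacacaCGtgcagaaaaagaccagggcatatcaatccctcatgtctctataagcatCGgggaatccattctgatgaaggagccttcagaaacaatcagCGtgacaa
Zfp65 (chr13:67729124-67729423, minus strand): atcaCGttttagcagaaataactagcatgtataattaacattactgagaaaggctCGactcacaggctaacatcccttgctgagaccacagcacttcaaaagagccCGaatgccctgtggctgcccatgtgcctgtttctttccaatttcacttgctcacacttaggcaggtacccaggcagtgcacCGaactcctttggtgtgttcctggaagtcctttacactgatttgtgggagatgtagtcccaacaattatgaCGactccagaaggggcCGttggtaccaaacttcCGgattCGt
Zfp84 (chr7:29768302-29768601, plus strand): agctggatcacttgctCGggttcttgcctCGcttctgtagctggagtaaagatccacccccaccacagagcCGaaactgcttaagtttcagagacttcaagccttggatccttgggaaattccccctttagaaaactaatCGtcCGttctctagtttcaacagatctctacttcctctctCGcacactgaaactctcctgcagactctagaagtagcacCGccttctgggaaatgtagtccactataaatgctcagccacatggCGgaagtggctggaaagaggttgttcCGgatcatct
Zfp664 held 39 CpGs in this window and Zfp687 held 15, while Zfp957 held 4, Zfp708 held 9, Zfp65 held 8 and Zfp84 held 9. Over all zinc finger rows methylation fell with CpG number within 1000 bases of the start, with Spearman correlations of -0.495, -0.495, -0.425 and -0.586 in PTC11, PTC12, TTF1 and TTF4 (342 to 344 rows, a description). Zfp84, chosen for its low methylation, had fractions of 0.0967, 0.0203, 0.00583 and 0.0871 in PTC11, PTC12, TTF1 and TTF4. Zfp957, chosen for its high methylation, had 0.404, 0.615, 0.755 and 0.885.

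The letters CCGGAA, the core bound by ETS family factors, were searched on both strands of the 275 zinc finger promoters in the RefSeq table. They were found in 37.5% of these and in 18.98% of all 17949 promoters. The gap was widest in promoters poor in CpGs. With fewer than 10 CpGs in the window, 31 of 87 zinc finger promoters (35.6%) and 440 of 7768 promoters of all genes (5.66%) held the motif. The motif itself contains a CpG, so a window without CpGs cannot hold it. CpG number was not matched between the groups within this range. With 10 to 19 CpGs the shares were 37.6% and 25.3%, and with 20 or more 39.2% and 31.4%. The share was 37.8% inside chromosomal arrays and 37.2% outside them. CCAAT was found in 47.3% of zinc finger promoters and 38.5% of all, TGACGTCA in 3.64% and 2.42%, TGCGCATG in 4.36% and 2.83%, AAGATGGC in 5.46% and 3.24%, and ACTACAA in 6.18% and 3.64%. Genes of an array can descend from copies of each other, which was not examined here. These promoters cannot be taken as independent, and the shares are given with no test. A match of letters is not a bound site.

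Zinc finger promoters were lowly methylated in every line. A fraction was present in every line for 339 rows. The median was 0.106 and 0.157 in PTC11 and PTC12, and 0.104 and 0.320 in TTF1 and TTF4. Protein coding genes as a whole had medians of 0.156, 0.215, 0.157 and 0.395, in the same order of lines. Genes with H3K4me3 in every line were lower still, at 0.0696, 0.0998, 0.0704 and 0.211, where the zinc finger rows with H3K4me3 in every line had 0.0833, 0.128, 0.0821 and 0.272. TTF4 was the highest line at 251 of 339 rows (74.0%), close to its share over all genes (75.4%). Only 2 rows (0.590%) lay above 0.5 in every line, beside 17.8% of all genes, and 29 rows (8.55%) lay below 0.1 in every line, beside 5.42%. Across the 339 rows the Spearman correlation between lines ran from 0.519 (TTF1 and TTF4) to 0.643 (PTC11 and PTC12). These points share CpG content and read depth, and the coefficients are descriptions.

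**Figure D1:**
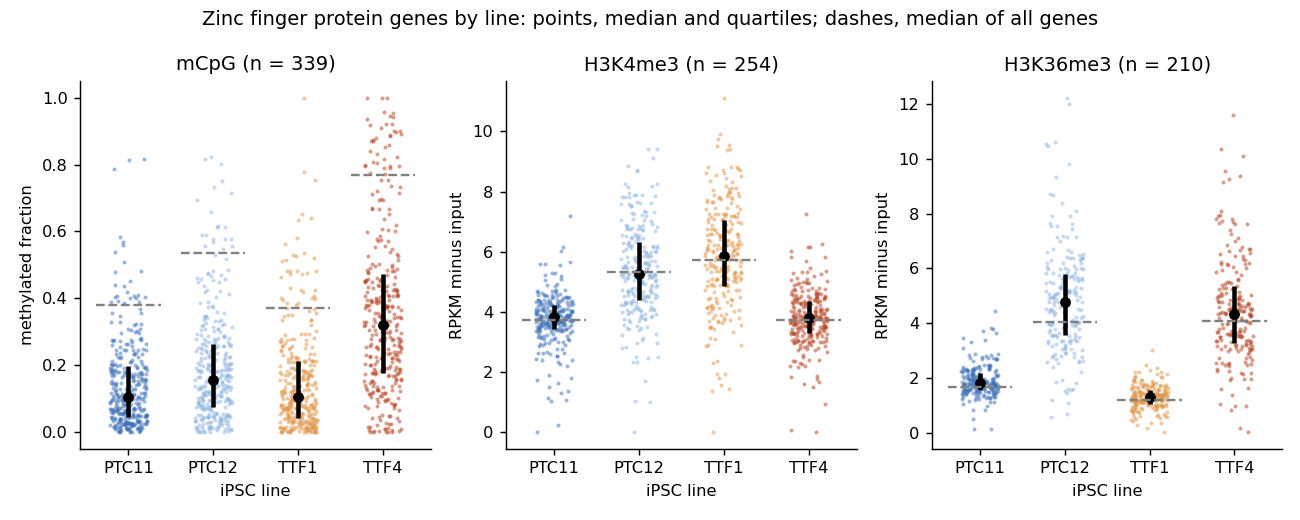
Each point is a zinc finger gene with a value in all 4 lines, by line (x) and by methylated fraction or RPKM minus input (y). Black marks give the median and quartiles, and dashes give the median of all genes. Methylation lies below the all-gene median in each line (0.320 beside 0.769 in TTF4), whereas the histone medians lie near it.

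The distance between zinc finger genes and all genes was widest where CpGs were few. The zinc finger genes had a median of 61.5 CpGs within 1000 bases of the start, beside 61.0 for protein coding genes and 25 for all genes. With 80 or more CpGs, the 103 zinc finger rows had medians of 0.0501, 0.0923, 0.0690 and 0.159 in PTC11, PTC12, TTF1 and TTF4. All genes of that CpG range had 0.0558, 0.0797, 0.0560 and 0.172. With 40 to 79 CpGs, 155 zinc finger rows had 0.1296, 0.167, 0.104 and 0.330, and all genes had 0.184, 0.253, 0.192 and 0.477. With fewer than 40 CpGs, the 81 zinc finger rows had medians of 0.195, 0.262, 0.225 and 0.572, and all 32474 genes of that range had 0.494, 0.653, 0.4996 and 0.840. The third quartile of the CpG-poor zinc finger rows was below the all-gene median in PTC11, PTC12, TTF1 and TTF4 alike. The genes of all kinds in this range include many noncoding genes, and gene type was not matched.

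**Figure D2:**
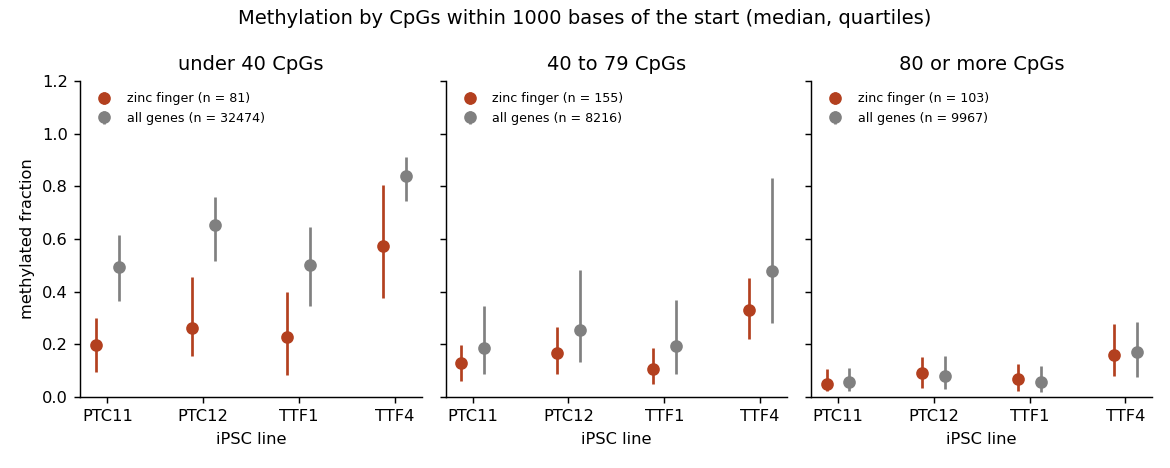
Median methylated fraction with quartiles (y) by line (x) for zinc finger genes (red) and all genes (grey), in 3 ranges of CpG number within 1000 bases of the start. The groups lie apart below 40 CpGs (0.195 beside 0.494 in PTC11), less so at 40 to 79, and near each other at 80 or more.

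The genes with the lowest and highest mean fractions were as follows. Zfp664 had fractions of 0.000893, 0.00448, 0.00238 and 0 in PTC11, PTC12, TTF1 and TTF4. Zfp687 had 0, 0.0232, 0.00196 and 0.0105, and Zfp516 had 0.0125, 0.0110, 0.0107 and 0.00420. The lines overlapped at these genes and none of them exceeded 0.0232. Zfp474 had the highest mean, with 0.785, 0.801, 0.635 and 0.922. Zfp936, on chromosome 7, had 0.584, 0.734, 0.654 and 0.824. Zfp558 had 0.812, 0.457, 1 and 0.698, with 8 CpGs within 1000 bases and therefore few sites behind each fraction. None of these highly methylated genes had an H3K4me3 value in any line.

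H3K4me3 was present at most zinc finger genes. Of 336 rows, 266 had a value in PTC11 and 267 in TTF4, while PTC12 and TTF1 had 287 each. All 4 lines had a value at 254 rows (75.6%), beside 31.2% of all genes, and no line had one at 41 rows (12.2%), beside 50.5%. Among protein coding genes, which most zinc finger genes are, all 4 lines had a value at 11279 of 21160 rows. Where a single line lacked the mark, it was PTC11 at 12 rows, TTF4 at 9 rows and never PTC12 or TTF1. PTC12 and TTF1 were also the lines with more peaks over all genes.

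Methylation was higher where H3K4me3 was missing. The 245 rows with H3K4me3 in every line and a complete set of fractions had medians of 0.0833, 0.128, 0.0821 and 0.272 in PTC11, PTC12, TTF1 and TTF4. The 35 rows with H3K4me3 in no line had 0.167, 0.333, 0.235 and 0.528. CpG number was not matched between these groups. H3K4me3 stood in every line at 35 of 79 rows with fewer than 40 CpGs and at 96 of 103 with 80 or more. At the 9 rows that lacked H3K4me3 in TTF4 alone, the medians were 0.215, 0.419, 0.171 and 0.753, and TTF4 ranged from 0.482 to 0.954. At the 11 rows with fractions that lacked H3K4me3 in PTC11 alone, the medians were 0.195, 0.279, 0.199 and 0.376, so PTC11 was not the highest line there. Over all zinc finger rows TTF4 was the highest line at 74.0% and PTC11 at 5.90%, whatever the H3K4me3. Within the rows that had a peak, the H3K4me3 level and methylation were only weakly related, with Spearman correlations from -0.234 (PTC12, 275 rows) to -0.0728 (PTC11, 257 rows).

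H3K4me3 and H3K36me3 levels of zinc finger genes tracked the line as all genes did. The H3K4me3 medians over 254 rows were 3.82, 5.27, 5.87 and 3.79 RPKM in PTC11, PTC12, TTF1 and TTF4. PTC12 and TTF1 both lay above PTC11 and TTF4 at 198 rows (78.0%), beside 81.4% of all genes. Zfp143, a factor of housekeeping promoters, had the highest mean, at 5.57, 9.13, 11.1 and 5.69 RPKM. Zfp329 had 5.59, 9.40, 9.55 and 6.15 RPKM, and Zfp157 had 4.32, 8.19, 9.53 and 4.30 RPKM. All of these followed the line split. At the low end Zfp97 was listed at 0 in every line, Zfp931 had 1.06, 1.03, 1.92 and 0.950 RPKM, and Zfp960 had 1.02, 0.990, 1.36 and 1.59 RPKM.

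H3K36me3 had a value in 318, 265, 283 and 230 of the 336 rows in PTC11, PTC12, TTF1 and TTF4, and in every line at 210. The medians over these 210 were 1.81, 4.77, 1.31 and 4.34 RPKM. PTC12 and TTF4 both lay above PTC11 and TTF1 at 195 rows (92.9%), beside 93.6% of all genes. Zfp330 had the highest mean with 3.47, 12.2, 1.73 and 10.4 RPKM, followed by Zfp783 (1.72, 10.6, 1.61 and 9.37 RPKM) and Zfp873 (3.81, 10.5, 1.69 and 6.68 RPKM). The lowest were Zfp534 (0.153, 0.675, 0.191 and 0.175 RPKM), Zfp97 (0.143, 0.586, 0.0286 and 0.997 RPKM) and Zfp960 (0.514, 1.21, 0.480 and 0.0285 RPKM). The level fell slightly with finger number, with Spearman correlations of -0.201 in PTC12 and -0.189 in TTF4 over 262 and 227 rows, and of -0.0911 and -0.0901 in PTC11 and TTF1.

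Of the 368 identifiers, 158 stood in 15 chromosomal arrays, defined as runs of at least 5 zinc finger genes whose neighbouring starts were at most 500000 bases apart. Chromosome 7 carried 8 of these arrays. Genes inside arrays had median fractions of 0.103, 0.157, 0.101 and 0.337 in PTC11, PTC12, TTF1 and TTF4, and genes outside had 0.115, 0.155, 0.113 and 0.287. The medians of the separate arrays lay further apart than these 2 groups did. Each array median rests on only 5 to 23 rows, however, and medians of small groups scatter more. The 2 spreads therefore cannot be compared. TTF4 had the highest median of the 4 lines in each of the 15 arrays.

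**Figure D3:**
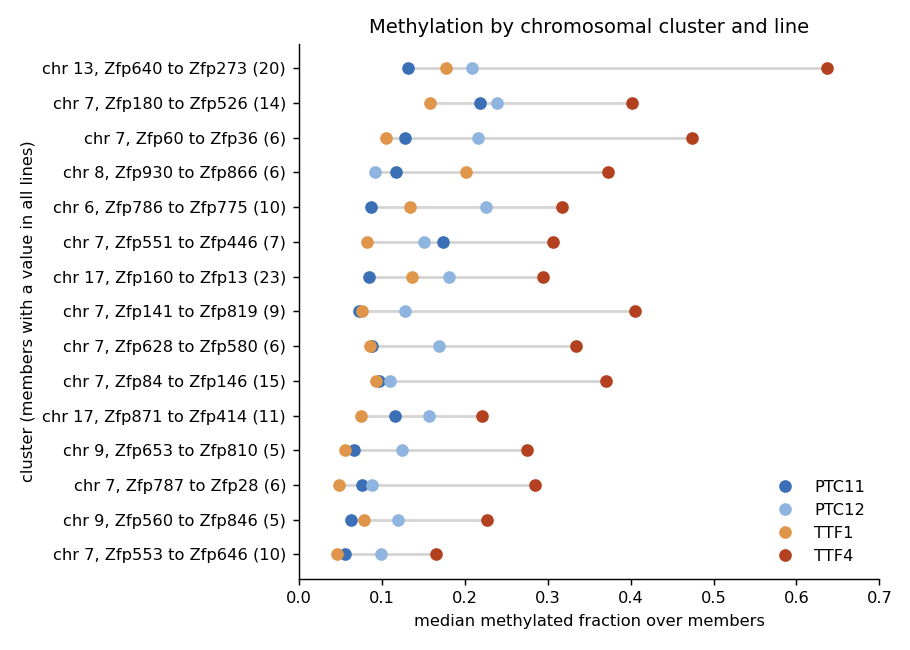
Median methylated fraction (x) of each array in each line (coloured points), with arrays (y) named by chromosome and by their first and last gene, ordered by the mean over lines. The chromosome 13 array stands at 0.637 in TTF4, and the lowest array, on chromosome 7 from Zfp553 to Zfp646, at 0.165.

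The array with the highest mean of line medians (0.289) ran from Zfp640 to Zfp273 on chromosome 13 (66.7 to 67.8 Mb, mm10). It had the highest median of the arrays in TTF4 alone. In PTC11, PTC12 and TTF1 other arrays were higher, with medians up to 0.218, 0.239 and 0.201. The array held 22 identifiers, with a median of 31.5 CpGs within 1000 bases and 15 fingers. Over its 20 rows with complete fractions, the median was 0.132 and 0.208 in PTC11 and PTC12, and 0.178 and 0.637 in TTF1 and TTF4. At 9 of these rows TTF4 lay at least 0.3 above the highest other line, beside 15.3% of all zinc finger rows and 14.9% of all genes. The array was picked by a mean that includes TTF4. This count and the TTF4 medians below therefore follow in part from that choice. Among CpG-poor genes alone, its 14 rows with fewer than 40 CpGs had a TTF4 median of 0.668, and the 67 such zinc finger rows elsewhere had 0.4998. Their medians in PTC11 were 0.154 and 0.202. The 15 other protein coding genes between the ends of the array had medians of 0.0610, 0.176, 0.0909 and 0.313. All 49 other genes there with complete fractions, coding or not, had 0.307, 0.420, 0.295 and 0.667. A high TTF4 median was thus not limited to the zinc finger genes of this stretch. CpG number was not matched in the comparisons with other genes.

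Genes within the chromosome 13 array varied widely. Zfp759 was the most methylated, with 0.481, 0.750, 0.580 and 0.889 in PTC11, PTC12, TTF1 and TTF4, and it still had H3K4me3 at 3.70, 5.09, 3.68 and 3.74 RPKM. Zfp87 was the least methylated, with 0.0470, 0.181, 0.0711 and 0.221, and had H3K4me3 at 4.72, 7.87, 7.89 and 4.19 RPKM. Zfp65, whose promoter is printed above, had 0.167, 0.319, 0.109 and 1, and has no row in the histone table used here. The fraction of 1 in TTF4 rests on an unknown number of reads. Zfp708, the repressor of a class of endogenous retroviruses, had 0.404, 0.694, 0.561 and 0.941 and no H3K4me3 value. The histone table holds a further identifier under the Zfp708 symbol, also with no H3K4me3 value.

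**Figure D4:**
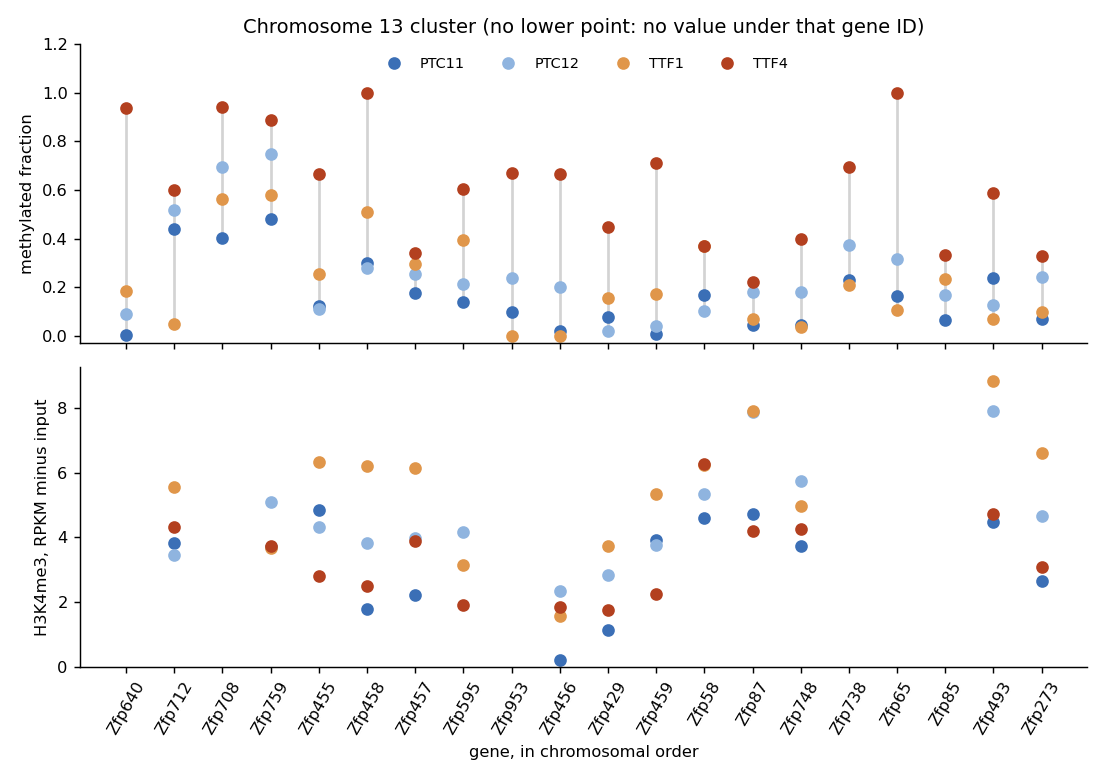
Methylated fraction (upper panel) and H3K4me3 in RPKM minus input (lower panel) of the genes of the chromosome 13 array in chromosomal order (x), by line. TTF4 is the highest methylation point at each of the 20 genes with complete fractions, with gaps up to that of Zfp640 (0.938 beside 0.184 in TTF1).

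The array with the lowest mean of line medians ran from Zfp553 to Zfp646 on chromosome 7 (127.2 to 127.9 Mb). It had medians of 0.0562, 0.0992, 0.0464 and 0.165 over 10 rows. It was richer in CpGs, with a median of 83.5 within 1000 bases. Zfp646 had 0.00376, 0.0348, 0.0120 and 0. Its start lies within 1000 bases of that of Zfp668 on the other strand, and the pair had identical H3K4me3 values. Zfp764, of the same array, stood apart with 0.275, 0.373, 0.294 and 0.796. In the arrays from Zfp141 to Zfp819 and from Zfp84 to Zfp146, also on chromosome 7, TTF4 had 0.406 and 0.370 while the other lines had medians of 0.0729 to 0.128 and of 0.0929 to 0.110.

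Where 1 line stood away from the rest in methylation, it was usually TTF4. TTF4 lay at least 0.3 above the highest other line at 52 of 339 rows (15.3%), near the 14.9% of all genes. Of these 52, 27 had fewer than 40 CpGs and 27 stood in arrays, beside 81 and 153 of all 339 rows. The 5 widest gaps were all of this kind. Zfp977 had 0, 0.0952, 0.0763 and 0.857 in PTC11, PTC12, TTF1 and TTF4. Zfp640 had 0.00455, 0.0910, 0.184 and 0.938, and Zfp775 had 0.0389, 0.134, 0.124 and 0.881. Zfp65 is given above, and Zfp750, a regulator of epidermal differentiation, had 0.0333, 0.0846, 0.112 and 0.790. H3K4me3 in TTF4 was present at 24 of the 43 such genes in the histone table (55.8%) and at 233 of 272 other zinc finger genes (85.7%). In TTF1 the shares were 76.7% and 89.3%, and in PTC11 65.1% and 83.8%. These are counts over genes of 1 library each, and the differences between these shares were not tested. CpG number was not matched between these groups of genes.

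The comparison between origins asked whether TTF lines differed from PTC lines. For methylation the mean of each line over all genes was subtracted first, because that mean differed between lines. It was 0.372, 0.482, 0.379 and 0.649 in PTC11, PTC12, TTF1 and TTF4. TTF4 was not the highest line at every gene, yet the same amount was subtracted at all genes of a line. Promoters near 0 in every line therefore became lowest in TTF4 after centring. By limma with Benjamini-Hochberg adjustment over 50657 genes, 0 of 339 zinc finger rows passed an adjusted p of 0.05, beside 0.00395% of all genes. At an unadjusted p under 0.05 there were 11 rows (3.24%), beside 4.72% of all genes. The median difference, TTF minus PTC, was -0.02 over the zinc finger rows and -0.01 over all genes. Without centring it was 0.0699 over the zinc finger rows. With these centred values, both TTF fractions exceeded both PTC fractions at 42 rows (12.4%, beside 15.0% of all genes) and below them at 34 (10.0%, beside 12.8%).

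The widest differences between non-overlapping origins in centred methylation were at Zfp640 (0.43, SE 0.15, adjusted p = 0.668 by limma), Zfp458 (0.38, SE 0.16, adjusted p = 0.908) and Zfp977 (0.33, SE 0.14, adjusted p = 0.949). At Zfp640 and Zfp977 the difference lay between TTF4 and the 3 other lines, as the fractions given above show. Zfp458 had 0.299, 0.281, 0.511 and 1 in PTC11, PTC12, TTF1 and TTF4, so both TTF lines were above both PTC lines also before centring. On the lower side Zfp352, a gene of early embryos with 8 CpGs within 1000 bases, had 0.818, 0.556, 0.4 and 0.5 (difference -0.32). Zfp951 had 0.408, 0.615, 0.125 and 0.438 (difference -0.32), and Zfp68 had 0.0567, 0.289, 0.0126 and 0.0222 (difference -0.24). The origins overlap at Zfp951 before centring. Without TTF1, 12 rows were called (2.01% of all genes), and without TTF4 1 row, Zfp512 (0.448% of all genes). With TTF1 left out the fit compares TTF4 alone with the PTC lines and assumes that TTF4 varies like them.

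For H3K4me3, limma on log2(RPKM + 1) called 2 of 254 zinc finger rows (0.787%), beside 0.481% of all genes. At an unadjusted p under 0.05 there were 8 rows (3.15%), beside 0.977% of all genes. Zfp456, in the chromosome 13 array, had 0.219, 2.32, 1.57 and 1.84 RPKM in PTC11, PTC12, TTF1 and TTF4. PTC11 was low and the origins overlapped, with a fitted difference of 0.42 (SE 0.11, adjusted p = 0.0326). Zfp764 had 2.42, 4.15, 4.93 and 0.0663 RPKM, a fitted difference of -0.74 (SE 0.20, adjusted p = 0.0413). Its TTF4 value was near 0, while TTF1 was the highest line, so the origins overlapped here too. Without PTC11 the difference of Zfp456 was -0.30 (adjusted p = 1), and without TTF4 that of Zfp764 was 0.50 (adjusted p = 0.987). The call of Zfp764 was also lost without PTC12 (difference -0.44, adjusted p = 1). Leaving out PTC11, PTC12, TTF1 or TTF4 gave 1, 1, 3 and 4 called rows, beside 0.43%, 0.554%, 0.788% and 0.642% of all genes. No row was called when the spread was fitted without a trend in mean, when genes under a mean of 1 RPKM were dropped, or after quantile normalization.

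**Figure D5:**
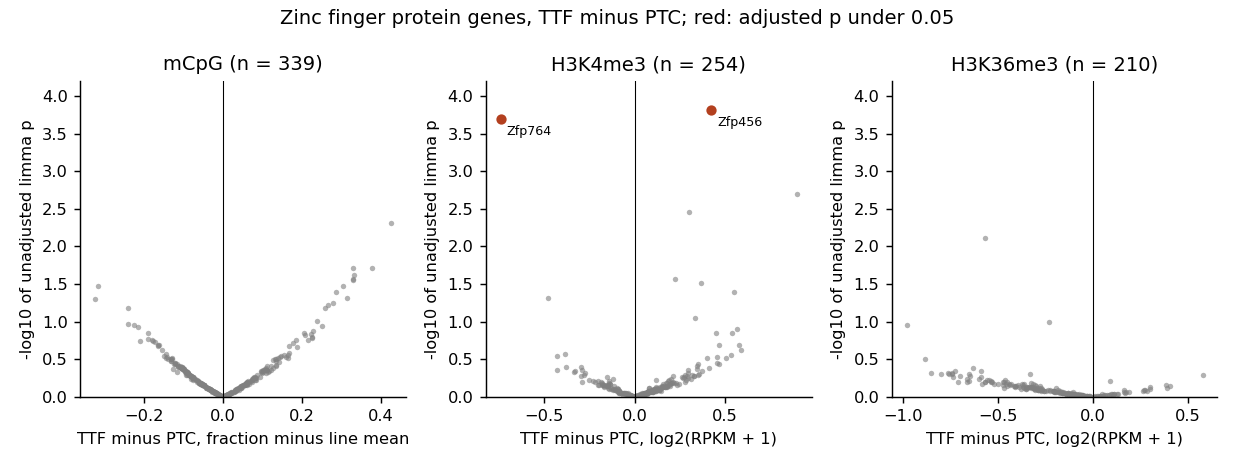
Difference TTF minus PTC (x; centred fraction or log2 of RPKM + 1) against -log10 of the unadjusted limma p (y) for each zinc finger gene and assay. The called genes, in red, are Zfp456 and Zfp764 in H3K4me3, and none is called for mCpG or H3K36me3.

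Both TTF values exceeded both PTC values in H3K4me3 at 18 rows (7.09%, beside 5.04% of all genes) and below at 8 (3.15%, beside 3.17%). Zfp947, in the chromosome 17 array from Zfp160 to Zfp13, had the widest such rise, with 1.62, 2.51, 2.85 and 7.25 RPKM (difference 0.90, SE 0.29, adjusted p = 0.319 by limma). TTF4 was far above TTF1 at this gene. Zfp938 had 4.35, 3.75, 7.17 and 6.03 RPKM and Zfp935 had 1.31, 3.56, 3.92 and 3.59 RPKM. On the lower side Zfp27 had 3.59, 3.12, 1.44 and 2.98 RPKM, Zfp295 had 4.26, 6.01, 3.79 and 3.24 RPKM, and Zfp697 had 4.72, 6.60, 4.53 and 3.93 RPKM. None of these 6 genes passed the test. The median difference was 0.05 over zinc finger rows and 0.04 over all genes, and it ran from -0.19 to 0.32 as single lines were left out.

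For H3K36me3, limma called 0 of 210 zinc finger rows, beside 0.112% of all genes. At an unadjusted p under 0.05 there was 1 row, Zfp960 (0.476%, beside 0.681% of all genes). Both TTF values exceeded both PTC values at 0 rows, beside 0.452% of all genes, and below at 9 (4.29%, beside 3.05%). The widest of these falls were at Zfp708 (2.27, 2.55, 0.614 and 0.851 RPKM in PTC11, PTC12, TTF1 and TTF4), Zfp180 (2.167, 4.42, 1.47 and 1.04 RPKM) and Zfp157 (4.43, 4.95, 2.30 and 2.00 RPKM). Their differences were -0.98, -0.88 and -0.85 on the log2 scale, with adjusted p = 1 by limma. The median difference was -0.18 over the zinc finger rows and -0.14 over all genes, and it moved between -0.81 and 0.42 as single lines were left out.

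Of 7 repressors of retroelements and imprinted genes, 7 could be tested for mCpG, 4 for H3K4me3 and 4 for H3K36me3. Limma called 0 in each assay, beside 0.00395%, 0.481% and 0.112% of all genes. Zfp809, which silences murine leukaemia viruses in embryonic cells, had fractions of 0.0451, 0.0708, 0.00479 and 0.275 and H3K4me3 at 3.29, 4.47, 4.44 and 2.57 RPKM. Zfp568, the repressor of a placental Igf2 promoter, was lowly methylated in every line (0.0200, 0.0333, 0.0943 and 0.0322). Zfp819 had 0.177, 0.171, 0.0261 and 0.831, and H3K4me3 in PTC11, PTC12 and TTF1 (3.16, 5.81 and 5.15 RPKM) with no value in TTF4. Zfp445, which protects imprinted methylation, had 0.178, 0.290, 0.373 and 0.490, and an H3K4me3 value in PTC12 alone (2.41 RPKM). Zfp932 had 0.0788, 0.0753, 0.0228 and 0.373, and Zfp961 had 0.200, 0.0929, 0.103 and 0.396. TTF4 was the highest line at Zfp809, Zfp819, Zfp445, Zfp708, Zfp932 and Zfp961, and not at Zfp568. Over all genes it was the highest line at 75.4%.

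Of 7 pluripotency and promoter regulators, 7 were tested for mCpG, 6 for H3K4me3 and 7 for H3K36me3. The calls numbered 0 in each assay, beside 0.00395%, 0.481% and 0.112% of all genes. Zfp281, a partner of the pluripotency network, had fractions of 0.0672, 0.0646, 0.0412 and 0.117 and H3K4me3 at 3.84, 6.80, 6.22 and 3.77 RPKM. Zfp143 had 0.0384, 0.0272, 0.0306 and 0.00509. Zfp296, expressed in pluripotent cells, had 0.0376, 0, 0.0876 and 0.379, and its start lies within 1000 bases of that of Gemin7 on the other strand. Zfp217 was the exception, with 0.330, 0.659, 0.482 and 0.911 and no H3K4me3 value in any line, and with H3K36me3 at 2.33, 5.77, 1.58 and 11.6 RPKM. Its listed start is thus methylated while its body carries H3K36me3. Zfp462 had 0.175, 0.0278, 0.319 and 0.346, Zfp706 had 0.121, 0.0722, 0.115 and 0.00820, and Zfp219 had 0.0214, 0.186, 0.209 and 0.231.

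Of 10 lineage regulators, 10 were tested for mCpG and 6 for each histone mark. These tests gave 0 calls, beside 0.00395%, 0.481% and 0.112% of all genes for mCpG, H3K4me3 and H3K36me3. Zfp423, a regulator of fat cell and neural development, had fractions of 0.00864, 0.0220, 0.0139 and 0.00323 with 211 CpGs within 1000 bases. Zfp703 had 0.0136, 0.0488, 0.0330 and 0.00278, Zfp503 had 0.0554, 0.107, 0.0927 and 0.0246, and Zfp521, a regulator of blood and neural progenitors, had 0.0919, 0.133, 0.0933 and 0.0909. TTF4 was the lowest line at these 4 genes, which had 81 to 211 CpGs within 1000 bases, and the highest line at the other 6 of the list. Zfp488, an oligodendrocyte factor, was methylated (0.408, 0.577, 0.334 and 0.957), with H3K4me3 values in PTC12 and TTF1 alone (3.42 and 3.36 RPKM). Zfp750 had H3K4me3 values in PTC11 and PTC12 alone (3.13 and 3.66 RPKM). Zfp536 had 0.187, 0.279, 0.172 and 0.468. Zfp335, Zfp467 and Zfp24 had 0.190, 0.174 and 0.237 in TTF4 and 0.0148 to 0.115 in the other lines.

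Of 9 genes of RNA and protein turnover, 9 were tested for mCpG, 8 for H3K4me3 and 7 for H3K36me3. None of these tests passed (0 calls, beside 0.00395%, 0.481% and 0.112% of all genes). Zfp36, which destabilizes cytokine mRNAs, had fractions of 0.103, 0.170, 0.0302 and 0.572. Zfp598, a sensor of collided ribosomes, had 0.0297, 0.129, 0.0727 and 0.197. Zfp91 had 0.0459, 0.00645, 0 and 0.0156 under each of its 2 identifiers, and its start lies within 1000 bases of that of Lpxn on the other strand. Zfp638 had 0.191, 0.200, 0.121 and 0.201, and has no row in the histone table used here. Zfp622, Zfp326, Zfp346, Zfp106 and Zfp207 ranged from 0.00618 to 0.348. H3K4me3 was given in every line for 8 of the 9 genes.

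The corepressor machinery that KRAB zinc finger proteins recruit was examined beside them as 16 genes, none of them zinc finger genes by the rule. All 16 were tested in each assay, and 0 were called by limma, beside 0.00395% of all genes for mCpG, 0.481% for H3K4me3 and 0.112% for H3K36me3. Trim28, the scaffold, had fractions of 0.261, 0.735, 0.477 and 0.650 in PTC11, PTC12, TTF1 and TTF4 and H3K4me3 at 3.89, 4.54, 5.08 and 3.65 RPKM. Setdb1, the histone H3 lysine 9 methyltransferase, had 0.184, 0.320, 0.211 and 0.00114. Cbx3, a heterochromatin protein, had 0.00125, 0.0124, 0.00257 and 0.00176. TTF4 had the highest fraction at 12 of the 16 genes, near its share over all genes (75.4%). Atf7ip was among these 12 (0.206, 0.646, 0.153 and 0.851). Trim28, Setdb1 and Cbx3 were highest in PTC12, and Atrx in PTC11.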

How the data were processed

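CpG methylation, H3K4me3, H3K36me3 and H3K27me3 were measured in iPSC lines PTC11, PTC12, TTF1 and TTF4 (for H3K27me3 both PTC libraries are named PTC11). Per the authors, ChIP-seq reads were trimmed with Trim Galore 0.0.4, aligned to mm10 with Bowtie2 2.1.0, called for peaks against input with MACS2 2.0.10 and counted with bedtools 2.17.0. The deposited histone values are RPKM minus input RPKM, averaged from 2 kb before to 3 kb after the start (H3K4me3) or over the gene body (H3K36me3). The deposited methylation values are fractions, which the authors made from nanopore reads aligned with minimap2 2.17-r941, in windows of 300 bases every 30 bases. The study's methods give a single common read number for the ChIP libraries. Reads per library and coverage per promoter are not in the tables, so the depth behind each value is unknown and no counting interval is given.

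Values were analysed as deposited with Python 3.11.15, R 4.3.3 and limma 3.58.1. TTF minus PTC was fitted on log2(RPKM + 1), or on the fraction minus the line's mean, over all genes with a value in every line, with a variance trend, Benjamini-Hochberg adjustment and a threshold of 0.05 on the adjusted p. A log2 difference with this pseudocount understates changes of low genes. The fit was also run on simulated data, and the outcome is not given here. With 2 lines per origin, 0 calls do not show that the origins are alike. With 2 lines against 2 an exact permutation test cannot go below p = 0.3333. Duplicates within a line are not separate in the tables, so p-values measure the spread between lines.

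Gene coordinates are those of the tables (mm10). CpGs were counted in GRCm38, fingers in coding sequences translated from GENCODE M21, and promoters were read from RefSeq (275 of 368 matched). The named genes were the lists of known roles, the 3 highest and 3 lowest means per assay, and the 3 largest rises and falls with non-overlapping origins. Added to these were all called genes and the 5 widest gaps of a single line in mCpG. The extremes of the arrays with the highest and lowest mean of line medians in mCpG were named too. Zfp512, Zfp957, Zfp84 and the corepressor genes given with values were picked from the results or their lists after their values were seen. Members and lists were chosen with earlier results of these data known.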

Additional observations from a re-analysis of the deposited data

How the results depend on the processing

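Of 84 recomputed summary values, 72 stayed within 1.5 times the reported count or within the spread between lines. Over the zinc finger genes, the median methylation difference was 0.0699 without centring the lines and -0.0172 with it. Leaving out single lines gave methylation medians from -0.0627 to 0.0269 and from 0 to 12 called genes, with 12 when TTF1 was left out. The 2 H3K4me3 calls fell to 0 with a mean of at least 1 RPKM, with quantile normalization and with no variance trend, and to 1 with values in at least 3 lines. Without single lines the count ran from 1 to 4. The difference of Zfp456 reversed to -0.30 without PTC11 and was at most 1.15 (without PTC12), and that of Zfp764 reversed to 0.50 without TTF4 and was lowest at -1.98 (without TTF1). The Zfp764 call was also lost without PTC12. The cause was not tested. With a pseudocount of 0.1 the H3K4me3 count stayed at 2, and H3K36me3 gave 0 calls under every alternative run. Adding symbols that end in letters, or counting shared values 1 time, moved no line's median by more than the spread. Arrays numbered 14 and 17, with 132 and 181 genes, with narrower and wider permitted gaps. With the wider gap, an array on chromosome 2 with 5 measured genes had the highest mean of line medians (0.355, beside 0.289 for chromosome 13). Coverage behind each fraction is unknown, so extreme values of CpG-poor promoters may rest on few reads. No paired analysis was possible because the labels of the PTC and TTF lines share no replicate numbers.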
